A study of Arabidopsis thaliana with 8 samples.

Results

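The cyclins, their kinase partners and the proteins that inhibit them were followed in the Arabidopsis thaliana poly(A) polymerase mutant paps1-1. The group holds 44 loci, which are defined by locus name, though they were chosen with earlier results of these data known. It has 10 A cyclins, 10 B cyclins, 10 D cyclins, 5 kinases of the CDKA and CDKB types, 7 KRP inhibitors and 2 inhibitors of the SIM type. All 44 have a probe among the 25665 loci on the array, and 42 passed the filter on dim probes, as did 21446 loci in all. The cyclin gene CYCA3;3 (AT1G47220) was above background on 2 mutant and 1 wild-type arrays of inflorescences and on 0 seedling arrays, and CYCD7;1 (AT5G02110), known from guard mother cells, on 0 arrays. These 2 genes were not tested.

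The study set paps1-1 against wild type on 8 arrays of 2 colours, 4 with inflorescences and 4 with whole seedlings, roots included, and each array carried 1 mutant and 1 wild-type RNA sample of its own. Both genotypes were in the Ler background and grew at 21 °C in long days. Inflorescences came from plants of 30 days on soil, with open flowers removed. Seedlings grew on MS plates, and mutants were harvested at 11 days but wild type at 9 days, because first leaves were then of like stage, so 2 days of age go with genotype in seedlings. The mutant was labelled with Cy5 on replicates 1 and 2 and with Cy3 on replicates 3 and 4 of each tissue. The labels call the samples biological replicates. As background, paps1-1 is known as a missense allele of 1 of the nuclear poly(A) polymerases, and the level of the PAPS1 transcript does not check the genotype. That transcript had a log2 ratio of 0.10 ± 0.05 (SE) in inflorescences and 0.00 ± 0.05 in seedlings.

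Cyclins bind cyclin-dependent kinases and set when and on what these act. D cyclins with CDKA promote entry into S phase by phosphorylating the retinoblastoma-related protein, which frees E2F transcription factors. A cyclins act in S phase and towards G2, and B cyclins with CDKA and CDKB drive mitosis. KRP proteins and the SIM family bind these complexes and hold them back, and in leaf, trichome and sepal cells they favour endoreduplication, in which DNA is copied without division. In shoot tissue many of the cyclin and kinase genes are most active in meristems and young organs.

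Each value below is a log2 ratio of paps1-1 over wild type, set against the other transcripts of the same array, with its standard error (SE) from a limma fit of 8 arrays, so n = 4 in each tissue. A gene is said to rise or fall where its Benjamini-Hochberg adjusted p was under 0.05 over all 21446 loci. By that rule 53.7% of all loci were called in inflorescences (26.2% higher and 27.5% lower) and 57.9% in seedlings (28.6% higher and 29.3% lower). A bare call is therefore common on these arrays, and the sizes and the values on single arrays carry more of the description. Arrays of the same tissue correlated across loci at 0.789 to 0.905 (inflorescences) or 0.702 to 0.895 (seedlings), and arrays of different tissues at 0.369 to 0.535. In bulk tissue, fewer cells of a type and less RNA per cell cannot be told apart. Probes of similar family members may also cross-react, which was not tested. The mutation lies in a poly(A) polymerase gene and the primer used for labelling is not given in the labels. Whether rises and falls are of transcript amount, or in part of how well a transcript was labelled, was not tested. Results are also given, where they change, with arrays centred on their median in place of loess, with the scanner software's own log ratio, with a background offset of 0, with the authors' deposited table, with another filter on dim probes or averaging of probes, and without the dye term.

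The classes did not move together. The median size of the ratio in the set was 0.188 in inflorescences and 0.161 in seedlings. Over all loci it was 0.168 and 0.185. In inflorescences 14 of the 42 genes rose and 13 fell, with a median of −0.03, beside a median of 0.00 over all loci. In seedlings 7 rose and 19 fell, with a median of −0.09, against 0.00 over all loci. The share of the 42 genes that was called was 64.3% in inflorescences and 61.9% in seedlings, beside the 53.7% and 57.9% of all loci, and no test of these shares was made. 7 genes rose in both tissues and 11 fell in both, while 2 rose in inflorescences and fell in seedlings. 9 passed in neither tissue. The matching shares of all loci are not given here, so these counts describe the set and do not mark it off from other genes. With arrays centred on their median in place of loess, 7 rose and 14 fell in inflorescences, and 5 rose and 24 fell in seedlings.

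A rule on size was passed by fewer of the genes and by fewer of all loci, and these shares were not compared by a test. Against a change of at least 1.2-fold, a stricter rule added after the data were seen, 13.9% of all loci passed in inflorescences and 17.9% in seedlings. Of the 42 genes, 5 passed it in inflorescences, namely CYCB1;3, CYCB2;1, CYCD3;3 and KRP6 upwards and SIM downwards. In seedlings 9 passed, with CYCB1;3, CYCD3;3, CDKB1;1 and KRP6 higher and CYCB1;5, CYCB2;3, CYCD2;1, KRP4 and SIM lower. Over all 8 arrays, 18 of the 42 genes kept 1 sign, 6 positive and 12 negative, as did 33.8% of all loci.

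**Figure D1:**
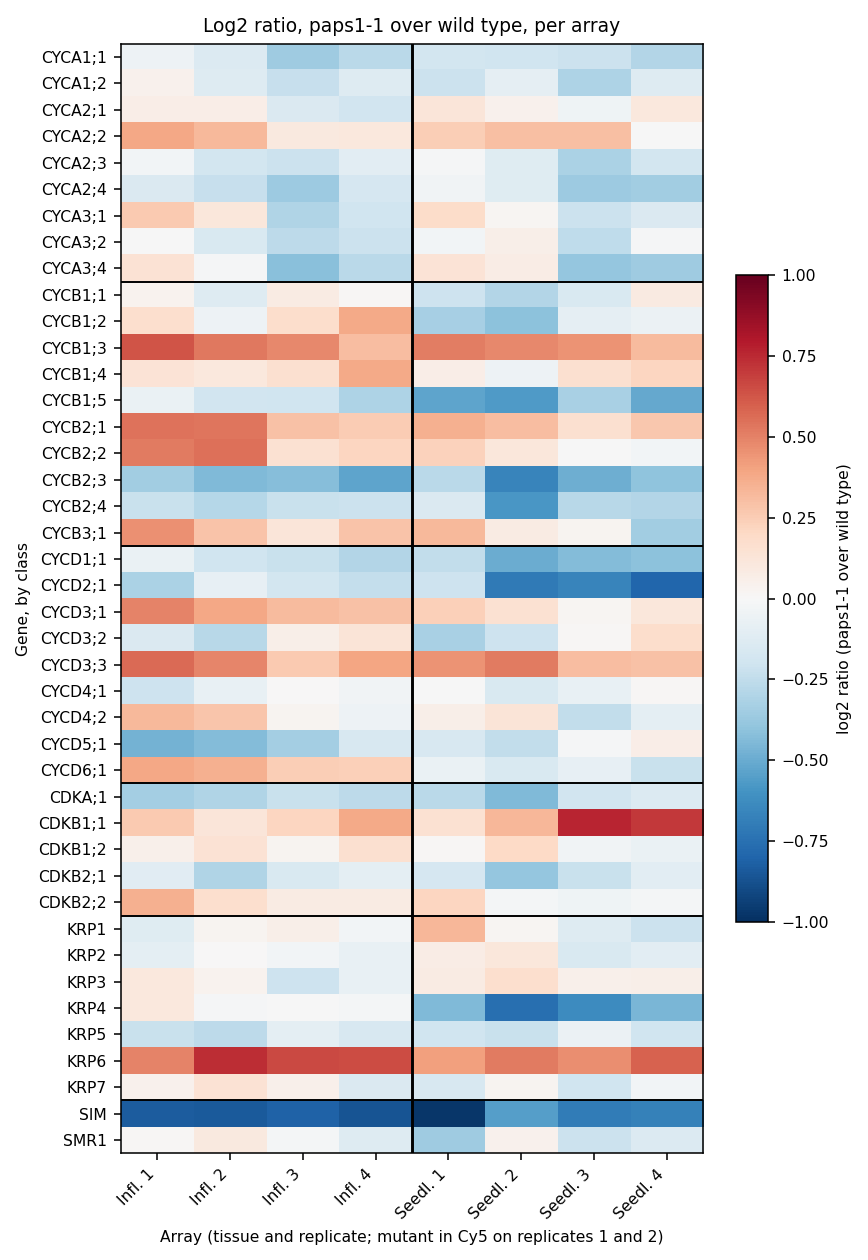
Log2 ratio of paps1-1 over wild type for the 42 tested genes (rows, grouped by class) on each of the 8 arrays (columns), with red for higher and blue for lower in the mutant. SIM is the bluest row, from −0.97 to −0.55, and KRP6, from 0.41 to 0.74, is among the 6 rows that are positive on all arrays.

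The 2 inhibitors of the SIM type parted. SIM (AT5G04470), which restrains CDK complexes and is needed for trichome cells to stop dividing and endoreduplicate, had the largest size of ratio of the 42 genes in both tissues, except that with an offset of 0, the software's log ratio or the authors' deposited table the seedling ratio of CYCB1;5 was larger. On the inflorescence arrays 1 to 4 its log2 ratio was −0.83, −0.84, −0.81 and −0.87, and on the seedling arrays −0.97, −0.55, −0.70 and −0.68. All 8 values were far below 0, and the inflorescence values lay within a narrow band. SIM fell by 0.84 ± 0.06 in inflorescences (adjusted p = 4.59e-06) and by 0.72 ± 0.06 in seedlings (adjusted p = 8.43e-06), and the difference of tissues did not pass (0.11 ± 0.09, adjusted p = 0.361) except without seedling replicate 1, at 0.21.

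Its relative SMR1 (AT3G10525, also LGO), known for giant cells of sepals and leaves, was at −0.01 ± 0.06 in inflorescences. In seedlings its arrays read −0.35, 0.05, −0.21 and −0.14, and it fell by 0.16 ± 0.06 (adjusted p = 0.0485). That fall rested on little. It no longer passed without seedling replicate 1, 3 or 4 or without any single inflorescence array, where the ratio ranged from −0.19 to −0.07, and it passed in 5 of 17 other settings in all.

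Among the KRP inhibitors, which bind both cyclin D and CDKA, 1 gene rose in both tissues, 1 fell in both, 1 fell in seedlings and 4 passed in neither. KRP6 (AT3G19150), whose protein is removed in the male germline for division to go on, read 0.50, 0.74, 0.66 and 0.65 on the inflorescence arrays and 0.41, 0.52, 0.46 and 0.59 on the seedling arrays. Every array was positive. KRP6 rose by 0.64 ± 0.05 in inflorescences (1.55-fold, adjusted p = 6.96e-06) and by 0.49 ± 0.05 in seedlings (adjusted p = 2.61e-05), or by 0.32 in seedlings with median centring. A second probe of this gene was above background on at most 1 array per group and was not used, and it averaged −0.08 and 0.04.

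KRP4 (AT2G32710), an inhibitor that links cell size to S-phase entry in the shoot meristem, did not pass in inflorescences, at 0.11, −0.01, 0.00 and −0.02 on the arrays. In seedlings it read −0.44, −0.76, −0.63 and −0.46. No seedling array reached the lowest inflorescence array. The gene fell by 0.57 ± 0.06 in seedlings (adjusted p = 2.58e-05) against 0.02 ± 0.06 in inflorescences (adjusted p = 0.820), and the difference of −0.59 ± 0.08 passed (adjusted p = 0.000671) and held under each of 17 other settings of the processing.

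KRP5 (AT3G24810), a promoter of endoreduplication in root and hypocotyl, read −0.22, −0.26, −0.10 and −0.16 in inflorescences and −0.20, −0.22, −0.06 and −0.20 in seedlings. It fell in both, by 0.19 ± 0.04 (adjusted p = 0.00485) and 0.17 ± 0.04 (adjusted p = 0.00698). With median centring these falls were 0.29 and 0.36, and with the software's log ratio the seedling one was 0.28. The others did not pass. KRP1 (AT2G23430) was at −0.02 and 0.00 in inflorescences and seedlings, KRP2 (AT3G50630) at −0.05 and −0.02, KRP3 (AT5G48820) at −0.03 and 0.09, and KRP7 (AT1G49620) at 0.02 and −0.09. For KRP1 the standard error was 0.07 in each tissue, and its seedling arrays spread from −0.22 to 0.33. KRP7 fell in seedlings with median centring (−0.27) and with the software's log ratio (−0.14).

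**Figure D2:**
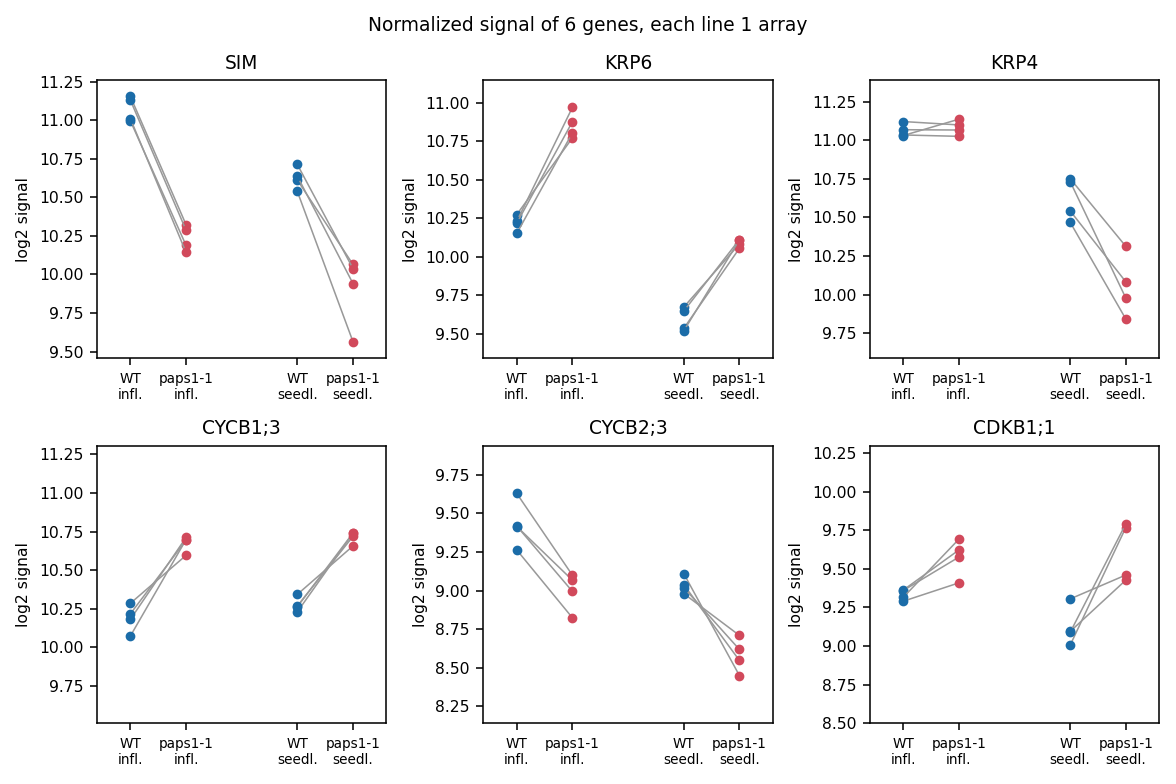
Normalized log2 signal of 6 genes in wild type (blue) and paps1-1 (red), with the 2 samples of an array joined by a line and 4 arrays per tissue. Each panel spans the same height on the log2 axis. SIM falls and KRP6 rises on all 8 arrays, while KRP4 falls on the seedling arrays, with log2 ratios of −0.76 to −0.44.

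The kinases split by gene and not by type. CDKA;1 (AT3G48750), the PSTAIRE kinase that acts at both G1/S and G2/M, read −0.34, −0.30, −0.22 and −0.26 on the inflorescence arrays and −0.27, −0.44, −0.19 and −0.13 on the seedling arrays. It was negative on every array. It fell by 0.28 ± 0.05 (adjusted p = 0.00063) and 0.26 ± 0.05 (adjusted p = 0.000863), in inflorescences and seedlings.

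CDKB1;1 (AT3G54180), a plant-type kinase of G2 that works in the stomatal lineage and against endoreduplication, moved the other way. The inflorescence arrays gave 0.26, 0.12, 0.22 and 0.38 and those of seedlings 0.15, 0.33, 0.76 and 0.70. In seedlings the higher values were the 2 arrays with the mutant in Cy3. This kinase rose by 0.24 ± 0.07 in inflorescences (adjusted p = 0.0111), and by 0.49 ± 0.07 in seedlings (adjusted p = 0.000149). The inflorescence rise did not pass with inflorescence replicate 1 left out (0.18), with median centring (0.14) or with the software's log ratio (0.25), and the seedling value was 0.30 with median centring. The difference of tissues did not pass (0.24 ± 0.09, adjusted p = 0.0719), though it did without inflorescence replicate 1 (0.31) or seedling replicate 1 (0.32). Its close relative CDKB1;2 (AT2G38620) was at 0.10 ± 0.05 and 0.03 ± 0.05, neither of which passed, with signal above background on 3 of 4 seedling arrays of each genotype.

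The CDKB2 kinases peak at the entry into mitosis and are needed to keep the shoot meristem in order. CDKB2;1 (AT1G76540) read −0.11, −0.30, −0.15 and −0.10 in inflorescences and −0.17, −0.39, −0.22 and −0.11 in seedlings. It was negative on all 8 arrays and fell by 0.17 ± 0.05 (adjusted p = 0.0228) and 0.22 ± 0.05 (adjusted p = 0.00475), the latter 0.38 with median centring. CDKB2;2 (AT1G20930) read 0.35, 0.17, 0.08 and 0.08 in inflorescences, where it rose by 0.17 ± 0.05 (adjusted p = 0.0186), and 0.21, −0.02, −0.04 and −0.02 in seedlings, where it did not pass. The inflorescence calls of this pair were thin. That of AT1G76540 ended without inflorescence replicate 2, 3 or 4 (−0.17 to −0.13), and that of AT1G20930 without replicate 1, 3 or 4 (0.13 to 0.18), with median centring (0.07) and with the software's log ratio (0.15). The median of the 5 kinases was 0.10 in inflorescences and 0.03 in seedlings, and the seedling median was −0.12 with median centring and −0.04 with the scanner software's own log ratio.

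Of the 9 D cyclins tested, 4 rose and 2 fell in inflorescences, and 2 rose and 3 fell in seedlings. Beside these counts, 53.7% and 57.9% of all loci were called, and no test of the class was made. The cytokinin-responsive CYCD3 genes, which keep cells of young organs and the cambium dividing, did not act as 1 group. CYCD3;3 (AT3G50070) read 0.56, 0.49, 0.26 and 0.40 in inflorescences and 0.45, 0.52, 0.31 and 0.29 in seedlings. CYCD3;1 (AT4G34160) read 0.50, 0.39, 0.31 and 0.29 against 0.24, 0.15, 0.02 and 0.11. Both were positive on every array. The former rose by 0.43 ± 0.04 (adjusted p = 2.86e-05) and 0.39 ± 0.04 (adjusted p = 4.2e-05). The latter rose by 0.37 ± 0.04 in inflorescences (adjusted p = 7.06e-05) and by 0.13 ± 0.04 in seedlings (adjusted p = 0.0261), where the call ended without seedling replicate 1, 3 or 4 (0.11 to 0.15), with median centring (0.01), with the software's log ratio (0.10) and without the dye term (0.13). The third gene, CYCD3;2 (AT5G67260), was at −0.06 ± 0.05 and −0.09 ± 0.05 and passed in neither tissue, but fell in seedlings with median centring (−0.18). Its ratio was −0.33 to −0.14 where the mutant carried Cy5 and 0.01 to 0.17 where it carried Cy3.

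CYCD2;1 (AT2G22490), a sucrose-responsive cyclin, and CYCD1;1 (AT1G70210), active in the first divisions of germination, had negative ratios on all 8 arrays. CYCD2;1 read −0.31, −0.08, −0.18 and −0.24 in inflorescences and −0.21, −0.71, −0.66 and −0.79 in seedlings. AT1G70210 read −0.06, −0.20, −0.22 and −0.29 in inflorescences and −0.25, −0.50, −0.43 and −0.41 in seedlings. The seedling replicate 1 was the closest to 0 for both. In seedlings they fell by 0.59 ± 0.08 (adjusted p = 0.000146) and 0.40 ± 0.05 (adjusted p = 0.000126), the latter by 0.65 with the software's log ratio. In inflorescences the germination cyclin fell by 0.20 ± 0.05 (adjusted p = 0.0104), which did not pass without inflorescence replicate 2 (−0.17) or 4 (−0.17). With median centring it was −0.30. The sucrose-responsive cyclin, at −0.20 ± 0.08, did not pass there (adjusted p = 0.0553), but did without seedling replicate 1 or 2 and with a stricter filter on dim probes, at the same −0.20, and with the software's log ratio (−0.26).

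CYCD6;1 (AT4G03270), best known from the formative divisions of the root ground tissue, read 0.38, 0.35, 0.25 and 0.24 in inflorescences and −0.07, −0.15, −0.08 and −0.22 in seedlings. The 2 tissues had opposite signs on every array. It rose by 0.31 ± 0.04 (adjusted p = 0.000292) and fell by 0.13 ± 0.04 (adjusted p = 0.0285), the fall ending without seedling replicate 2 (−0.10) or 4 (−0.11) and without the dye term. With an offset of 0, the software's log ratio, median centring or the authors' deposited table it ran from −0.28 to −0.21. CYCD5;1 (AT4G37630), for which natural variation has been tied to endoreduplication, read −0.47, −0.43, −0.34 and −0.16 in inflorescences and −0.16, −0.25, −0.01 and 0.06 in seedlings. It fell by 0.35 ± 0.05 in inflorescences (adjusted p = 0.00015), and its −0.09 ± 0.05 in seedlings did not pass except with median centring (−0.27) or the software's log ratio (−0.16). CYCD4;2 (AT5G10440), a cyclin of the stomatal lineage in hypocotyls, was positive on inflorescence replicates 1 and 2 (0.33 and 0.28), where the mutant carried Cy5, and near 0 on replicates 3 and 4 (0.03 and −0.05). It rose by 0.15 ± 0.04 there (adjusted p = 0.0197), though not without inflorescence replicate 1, 2 or 3 (0.13 to 0.15), with the software's log ratio (0.18), with median centring (0.12) or without the dye term. CYCD4;1 (AT5G65420), of the lateral root and the stomatal lineage, was at −0.08 ± 0.05 and −0.05 ± 0.05, and fell in seedlings with median centring (−0.23).

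B cyclins had the most calls of the classes in inflorescences, where 6 of 10 rose and 3 fell, beside 26.2% and 27.5% of all loci. In seedlings 2 rose and 5 fell, beside 28.6% and 29.3% of all loci. The class was not tested against these shares. Their median was 0.18 in inflorescences and −0.06 in seedlings, and the seedling median was 0.02 with a stricter filter on dim probes. The rises and falls ran within the B1 and the B2 families alike.

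In the B1 family, whose members drive mitotic entry and are destroyed by the anaphase-promoting complex, CYCB1;3 (AT3G11520) was positive on all arrays, at 0.62, 0.53, 0.48 and 0.31 in inflorescences and 0.51, 0.48, 0.45 and 0.31 in seedlings. It rose by 0.49 ± 0.05 (adjusted p = 2.4e-05) and 0.44 ± 0.05 (adjusted p = 3.82e-05), the seedling value being 0.28 with median centring. CYCB1;5 (AT1G34460) read −0.07, −0.19, −0.20 and −0.31 in inflorescences and −0.53, −0.57, −0.33 and −0.51 in seedlings. The arrays of the mutant seedlings were the dim ones here, above background on 1 of 4, against 4 of 4 in wild type. The gene fell in seedlings (adjusted p = 5.4e-05), but with so dim a mutant signal the size is uncertain: the log2 ratio was −0.48 here, −1.16 with an offset of 0, −1.08 in the authors' deposited table and −1.72 with the software's log ratio, and a stricter filter left the gene out. In inflorescences it fell by 0.19 ± 0.06 (adjusted p = 0.0163), by 0.31 to 0.46 in those 3 other settings, and the call ended without replicate 2, 3 or 4 (−0.19 to −0.14) and with median centring (−0.18).

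The other B1 cyclins had smaller ratios. CYCB1;2 (AT5G06150) read 0.17, −0.05, 0.18 and 0.38 in inflorescences and −0.33, −0.41, −0.09 and −0.06 in seedlings. It rose by 0.17 ± 0.05 (adjusted p = 0.0221) in the first, not without inflorescence replicate 1 (0.12) or 4 (0.14), with median centring (0.16) or without the dye term, and fell by 0.22 ± 0.05 (adjusted p = 0.00496) in the second. CYCB1;4 (AT2G26760) rose by 0.19 ± 0.05 in inflorescences, not without replicate 4 (0.15) or with median centring (0.12), and was at 0.10 ± 0.05 in seedlings. The gene behind the most used reporter of mitotic cells, CYCB1;1 (AT4G37490), was at 0.00 ± 0.06 in inflorescences, with arrays from −0.13 to 0.08. In seedlings it fell by 0.14 ± 0.06 (adjusted p = 0.0469), with arrays of −0.21, −0.30, −0.15 and 0.09. This fall did not pass without inflorescence replicate 2, 3 or 4 or seedling replicate 1, 2 or 3 (−0.15 to −0.11), nor with an offset of 0, the software's log ratio, the authors' deposited table, no filter on dim probes, no dye term or the replicate block (−0.17 to −0.14), while with median centring it was −0.32.

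The 4 cyclins of the B2 family, partners of CDKB2 at mitosis, fell into 2 pairs. CYCB2;1 (AT2G17620) read 0.54, 0.54, 0.29 and 0.25 in inflorescences and 0.36, 0.31, 0.16 and 0.27 in seedlings. It rose by 0.41 ± 0.04 (adjusted p = 4.89e-05) and 0.27 ± 0.04 (adjusted p = 0.000513), the latter 0.15 with median centring. CYCB2;2 (AT4G35620) read 0.52, 0.55, 0.15 and 0.22 in inflorescences, where it rose by 0.36 ± 0.05 (adjusted p = 0.000122), and was at 0.08 ± 0.05 in seedlings. In both, the inflorescence arrays with the mutant in Cy5 were the higher ones. The other pair was negative on every array. CYCB2;3 (AT1G20610) read −0.35, −0.44, −0.42 and −0.53 in inflorescences and −0.27, −0.66, −0.49 and −0.40 in seedlings. It fell by 0.43 ± 0.06 (adjusted p = 0.000266) and 0.46 ± 0.06 (adjusted p = 0.000163). CYCB2;4 (AT1G76310) read −0.22, −0.29, −0.22 and −0.21 and then −0.14, −0.58, −0.28 and −0.29, and fell by 0.24 ± 0.06 (adjusted p = 0.0108) and 0.33 ± 0.06 (adjusted p = 0.00156), the latter 0.50 with median centring.

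CYCB3;1 (AT1G16330), which has a role at meiosis, rose by 0.29 ± 0.07 in inflorescences (adjusted p = 0.00761), with arrays from 0.12 to 0.46, but did not pass with median centring (0.19). In seedlings its arrays spread from −0.35 to 0.32 about 0.02 ± 0.07. Of 6 marker genes of meiocytes 0 rose and 3 fell in inflorescences, beside 26.2% and 27.5% of all loci, with a median of −0.21. Their summed signal was 1880 to 2679 in mutant and 2593 to 3429 in wild-type inflorescences. All 6 were above background there on every array. The part of meiocytes in the cyclin's ratio was not tested.

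The A cyclins had mostly small falls, and these were alike in the 2 tissues. In inflorescences 1 of 9 rose and 4 fell, in seedlings 1 rose and 5 fell, and the median was −0.13 in both. Of all loci, 53.7% and 57.9% were called in the 2 tissues, and the class was not tested against these shares. By array, the class median was 0.04, −0.13, −0.26 and −0.19 in inflorescences and −0.01, 0.02, −0.255 and −0.15 in seedlings. In both tissues it was thus lower on the arrays with the mutant in Cy3. With median centring 0 rose and 6 fell in each tissue. CYCA1;1 (AT1G44110), of the mitotic A1 type, read −0.05, −0.14, −0.36 and −0.27 in inflorescences and −0.18, −0.20, −0.21 and −0.29 in seedlings. It fell by 0.20 ± 0.05 (adjusted p = 0.00398) and 0.22 ± 0.05 (adjusted p = 0.00214), the latter 0.38 with median centring. CYCA1;2 (AT1G77390), the meiotic cyclin TAM, was at −0.11 ± 0.05 in inflorescences and did not pass except with median centring (−0.20). It read −0.21, −0.09, −0.31 and −0.13 in seedlings and fell by 0.18 ± 0.05 (adjusted p = 0.0118), not without seedling replicate 3 (−0.15). With an offset of 0, the software's log ratio or the authors' deposited table that value ran from −0.36 to −0.29.

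The A2 cyclins act with CDKB1 against endoreduplication. CYCA2;2 (AT5G11300) was the A cyclin that rose, at 0.38, 0.33, 0.09 and 0.11 in inflorescences and 0.24, 0.30, 0.30 and 0.00 in seedlings. It rose by 0.23 ± 0.06 (adjusted p = 0.00572) and 0.21 ± 0.06 (adjusted p = 0.00808), although not in seedlings without replicate 3 (0.14), and in neither tissue with median centring (0.14 and 0.10). CYCA2;4 (AT1G80370) read −0.14, −0.23, −0.36 and −0.17 and then −0.04, −0.12, −0.37 and −0.35, and fell by 0.23 ± 0.05 (adjusted p = 0.00467) and 0.22 ± 0.05 (adjusted p = 0.00507), the latter by 0.34 to 0.45 in the same 3 settings. CYCA2;3 (AT1G15570) fell by 0.16 ± 0.05 in seedlings, or 0.33 with median centring, though not without seedling replicate 2 (−0.15) or 3 (−0.12). In inflorescences it was at −0.13 ± 0.05 (adjusted p = 0.0501) and passed without inflorescence replicate 4 (−0.17) or seedling replicate 1 (−0.13), with median centring (−0.21), and with a stricter filter or the mean of probes (−0.13). CYCA2;1 (AT5G25380) was at −0.05 ± 0.05 and 0.06 ± 0.05, and rose in seedlings with the software's log ratio (0.22).

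The A3 cyclins are expressed about the start of S phase. For CYCA3;4 and CYCA3;1 the ratio moved with the dye in both tissues. CYCA3;4 (AT1G47230) read 0.15, −0.01, −0.42 and −0.27 in inflorescences and 0.14, 0.08, −0.39 and −0.36 in seedlings, so that the negative values came almost wholly from the arrays with the mutant in Cy3. It fell by 0.14 ± 0.05 (adjusted p = 0.0318) and 0.13 ± 0.05 (adjusted p = 0.0331), and passed in neither tissue without the dye term, nor in inflorescences with an offset of 0 or the authors' deposited table (−0.15). With median centring the values were −0.24 and −0.28, and with the software's log ratio −0.30 in seedlings. Nor did it pass without inflorescence replicate 1, 2 or 3 (−0.16 to −0.10) in the one, or without seedling replicate 2, 3 or 4 (−0.13 to −0.12) in the other. CYCA3;2 (AT1G47210) read 0.00, −0.15, −0.26 and −0.22 in inflorescences, where it fell by 0.16 ± 0.05 (adjusted p = 0.0268) and did not pass without inflorescence replicate 2 (−0.13), 3 (−0.15) or 4, with an offset of 0 or without the dye term. With median centring it was −0.25. Its seedling arrays read −0.02, 0.06, −0.255 and −0.01, without a clear split by dye. The seedling ratio was −0.06 ± 0.05, which passed with median centring alone (−0.22). CYCA3;1 (AT5G43080) read 0.26, 0.12, −0.30 and −0.20 in inflorescences and was at −0.03 ± 0.05 there and −0.04 ± 0.05 in seedlings.

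**Figure D3:**
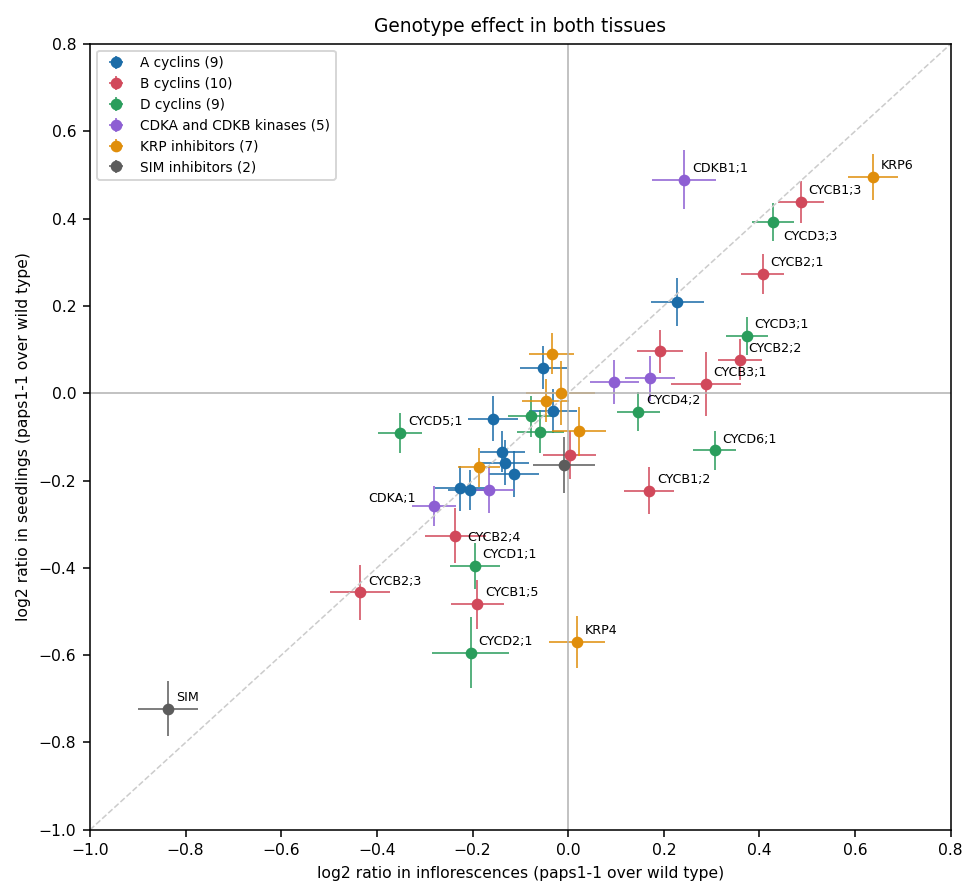
Log2 ratio of paps1-1 over wild type in inflorescences (horizontal axis) and in seedlings (vertical axis) for the 42 tested genes, coloured by class, with bars for 1 SE on each side and a dashed line of equality. Most genes lie near the line, SIM at −0.84 and −0.72 and KRP6 at 0.64 and 0.49, while KRP4 (0.02 and −0.57) and CYCD6;1 (0.31 and −0.13) lie away from it.

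Whether the genotype effect differed between tissues was tested directly as seedlings minus inflorescences. By this test 32.2% of all loci passed, 16.3% with the higher value in seedlings and 15.9% with the lower. Of the 42 genes 9 passed, or 21.4%, with 1 higher and 8 lower in seedlings. Each tissue had a slide of its own, and the effects of slide and tissue cannot be told apart here, and the age gap concerns seedlings alone. None of the A cyclins and none of the kinases passed in the main setting. CYCA2;1 did with the software's log ratio (0.31), and CDKB1;1 without inflorescence replicate 1 (0.31) or seedling replicate 1 (0.32).

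Beside KRP4, the genes that passed held 2 cyclins that rose in inflorescences and fell in seedlings. The D6 gene AT4G03270 differed by −0.44 ± 0.06 (adjusted p = 0.000742), and the B1 gene AT5G06150 by −0.39 ± 0.08 (adjusted p = 0.00373). These 2 and KRP4 passed under all 17 of those settings. For AT4G35620 of the B2 family the difference was −0.28 ± 0.07 (adjusted p = 0.00908), which did not pass without the dye term. It was 0.26 ± 0.07 (adjusted p = 0.0139) for the D5 gene AT4G37630, the only one with the higher value in seedlings, and did not pass with median centring (0.17) or without the dye term. AT4G34160 of the D3 family had −0.24 ± 0.06 (adjusted p = 0.0151), which ended without inflorescence replicate 1 (−0.22) or seedling replicate 3 (−0.22). The B1 gene AT1G34460 had −0.29 ± 0.08 (adjusted p = 0.0193), which ended without inflorescence replicate 1 (−0.24) or seedling replicate 2 (−0.26) and with median centring (−0.28). Its size is uncertain, since it ran to −1.26 with the software's log ratio. AT2G22490 of the D2 type had −0.39 ± 0.11 (adjusted p = 0.0260), which passed only without inflorescence replicate 1 or seedling replicate 1 when an array was left out, and ranged from −0.39 to −0.32 where it did not pass. It was also lost with an offset of 0 (−0.45) and median centring (−0.46). AT5G10440 of the D4 type had −0.19 ± 0.06 (adjusted p = 0.0463) and, of the arrays left out in turn, kept its call only without seedling replicate 4, with −0.21 to −0.16 elsewhere. It passed in 5 of 17 other settings, among them an offset of 0 (−0.31) and the authors' deposited table (−0.29). Conversely, without seedling replicate 1 the differences of AT1G16330 (−0.33) and AT1G70210 (−0.24) passed, as they did with the software's log ratio (−0.36 and −0.41). That of AT1G70210 also passed with an offset of 0 (−0.33) and in the authors' deposited table (−0.32).

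Seedlings of the 2 genotypes also differed in markers of organs, in a tissue where 57.9% of all loci were called. Of 11 root markers 8 were higher and 1 lower in mutant seedlings, with a median of 0.88. Their summed signal was 13223 to 14388 in mutant and 8131 to 9166 in wild-type seedlings, and all 11 were above background on every array. Of 12 green leaf markers 1 was higher and 9 were lower, with a median of −0.50. Their summed signal was 1008280 to 1352700 against 1353911 to 1908990. By array, the leaf median was −0.25 and −0.16 for seedling replicates 1 and 2, whose mutant RNA carried Cy5. For replicates 3 and 4, whose mutant RNA carried Cy3, it was −1.14 and −0.93. The size of the leaf fall thus went with the dye and is uncertain. Of 9 shoot meristem markers 5 were higher and 1 was lower, with a median of 0.31 and a summed signal of 6474 to 7031 against 5186 to 5655. WUS was above background on 0 mutant seedling arrays. The part of organ proportions, or of age, in the seedling ratios of cyclins and inhibitors was not tested.

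The same was asked of the inflorescences, where 53.7% of all loci were called. Of the 9 shoot meristem markers 2 were higher and 3 lower in the mutant, with a median of −0.04 and a summed signal of 12144 to 12764 against 11161 to 11582 in wild type. Of 6 tapetum markers 4 were higher and 1 lower (median 0.24, summed signal 9376 to 11185 against 8174 to 10388), and of 4 pollen markers 1 was higher and 2 were lower (median −0.35, 32479 to 39750 against 46670 to 54990). Of 7 floral genes 3 were higher and 0 lower (median 0.17, 141757 to 150889 against 129208 to 133044). No marker of these 4 lists was below background on all inflorescence arrays of a genotype. The part of these cells in the ratios was not tested.

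The genes that control or work with the cyclin and kinase set were followed in 7 further lists. At most 3 genes per direction and tissue are named, so a gene named for 1 tissue may have passed in the other too. The counts in these lists stand beside 53.7% of all loci called in inflorescences and 57.9% in seedlings, and were not tested against these shares. Among 12 regulators of the RB, E2F and MYB3R type, 1 rose and 3 fell in each tissue. MYB3R-4, an activator of mitotic genes, rose by 0.30 ± 0.05 in inflorescences and 0.19 ± 0.05 in seedlings. The E2F factor gene E2F1 (AT5G22220) fell by 0.39 ± 0.04 and 0.23 ± 0.04, and DEL1, which holds back the endocycle, by 0.29 ± 0.06 and 0.27 ± 0.06. DPB, an E2F partner, fell by 0.17 ± 0.04 in inflorescences, and PC-MYB1 by 0.14 ± 0.05 in seedlings.

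Of the 8 genes that activate or modify the kinases, 1 rose and 5 fell in inflorescences, and 3 rose and 5 fell in seedlings. CAK1AT (AT4G28980), a kinase that activates the CDK-activating kinases, fell by 0.48 ± 0.05 and 0.60 ± 0.05. In inflorescences WEE1, which phosphorylates CDKA to hold it inactive after DNA damage, fell by 0.43 ± 0.05, and the kinase subunit gene CKS2 by 0.40 ± 0.08. WEE1 and CKS2 were among the 5 genes that fell in seedlings as well, by less than the seedling falls given here. The CKS2 paralog CKS1 rose by 0.66 ± 0.10 in seedlings, with arrays of 0.29, 1.07, 0.62 and 0.65. In seedlings the activating kinases CDKD1;3 and CDKD1;1 fell by 0.40 ± 0.06 and 0.31 ± 0.06, while CAK4 rose by 0.15 ± 0.05 in inflorescences and 0.27 ± 0.05 in seedlings, and their cyclin CYCH;1 rose by 0.19 ± 0.06 in seedlings.

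A further 12 loci were listed as related to SIM, of which the reference table names 3. Of the 12, 2 rose and 5 fell in inflorescences, and 3 rose and 8 fell in seedlings, with medians of −0.13 and −0.26. SMR5 (AT1G07500), known for induction under oxidative and DNA stress, read 0.58, 0.42, 0.30 and 0.24 in inflorescences and 0.88, 1.19, 0.95 and 0.83 in seedlings. Each seedling array was above each inflorescence array. It rose by 0.39 ± 0.06 (adjusted p = 0.000369) and by 0.96 ± 0.06 (1.95-fold, adjusted p = 9.95e-07), and the difference of 0.58 ± 0.08 passed (adjusted p = 0.000705). SMR4 (AT5G02220) rose as well, by 0.26 ± 0.06 and 0.50 ± 0.06. SMR7 (AT3G27630), likewise known from the DNA damage response, fell by 0.58 ± 0.07 in each tissue, with arrays from −0.75 to −0.34. The unnamed locus AT1G51355 fell by 0.66 ± 0.05 and 0.60 ± 0.05. Of other unnamed loci, AT5G40460 fell by 0.45 ± 0.05 in inflorescences, AT2G28870 fell by 0.38 ± 0.06 in seedlings and AT5G02420 rose by 0.35 ± 0.08 in seedlings.

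P-type cyclins, whose relatives in baker's yeast act in phosphate sensing, had 1 higher and 2 lower of 7 in inflorescences and 2 higher and 3 lower in seedlings. CYCP4;2 (AT5G61650) read 0.11, 0.01, −0.04 and 0.06 in inflorescences and 0.89, 1.11, 0.90 and 0.64 in seedlings. The tissues did not overlap, and it rose by 0.89 ± 0.06 in seedlings (1.85-fold, adjusted p = 1.99e-06). CYCP4;3 rose by 0.23 ± 0.05 in seedlings, while CYCP4;1 fell by 0.17 ± 0.06 in inflorescences and 0.44 ± 0.06 in seedlings and CYCP2;1 fell by 0.25 ± 0.09 in seedlings. In inflorescences CYCP3;2 rose by 0.14 ± 0.05, and its relative at AT2G45080 fell by 0.14 ± 0.05 there and in seedlings.

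Genes that act further on were mixed. The anaphase-promoting complex, which marks mitotic cyclins for breakdown, had 4 higher and 6 lower of 20 in inflorescences and 2 higher and 6 lower in seedlings. Its activators CDC20.1 and FZR3 rose by 0.36 ± 0.07 and 0.31 ± 0.06 in inflorescences, as did the subunit APC11, by 0.27 ± 0.05. Its subunits CDC27a and APC6 fell there by 0.42 ± 0.06 and 0.33 ± 0.05, and its inhibitor UVI4 by 0.31 ± 0.05. In seedlings CDC20.2 and EMB2771 rose by 0.20 ± 0.07 and 0.16 ± 0.06, and UVI4, HBT and CDC27a fell by 0.19 ± 0.05, 0.19 ± 0.05 and 0.15 ± 0.06.

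Replication genes had 4 higher and 6 lower of 22 in inflorescences and 6 higher and 4 lower in seedlings. RNR2A, a subunit of ribonucleotide reductase, rose by 0.32 ± 0.05 and 0.44 ± 0.05, and in seedlings its relative TSO2 rose by 0.34 ± 0.05 and the helicase subunit MCM3 by 0.30 ± 0.05. The clamp genes PCNA1 and PCNA2 rose by 0.17 in inflorescences. Among the origin and licensing genes, in inflorescences ORC4 fell by 0.44 ± 0.07, ORC1A by 0.35 ± 0.04 and the licensing factor CDT1B by 0.30 ± 0.05. In seedlings ORC1A fell by 0.21 ± 0.04, and CDT1B and CDC6 each by 0.23 ± 0.05.

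In the list of mitosis and cytokinesis 9 of 16 tested genes rose and 3 fell in inflorescences, with a median of 0.20, and 5 rose and 3 fell in seedlings, with a median of 0.06. SYP111, the cytokinesis syntaxin KNOLLE, rose by 0.58 ± 0.06 in inflorescences (arrays from 0.52 to 0.65) and 0.30 ± 0.06 in seedlings (arrays from 0.13 to 0.51). AUR2, an Aurora kinase, rose by 0.45 ± 0.05 and 0.29 ± 0.05. Of the checkpoint genes, MAD2 rose by 0.42 ± 0.07 in inflorescences, and BUBR1 rose by 0.32 ± 0.05 in seedlings. HTR12, the centromeric histone CENH3, went the other way. It fell by 0.61 ± 0.05 in inflorescences (arrays from −0.70 to −0.54) and 0.50 ± 0.05 in seedlings (arrays from −0.58 to −0.46). The kinesin gene PAKRP1 of the phragmoplast fell by 0.33 ± 0.06 and 0.20 ± 0.06, and KEU, a partner of the cytokinesis syntaxin, by 0.13 ± 0.04 and 0.21 ± 0.04.

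**Figure D4:**
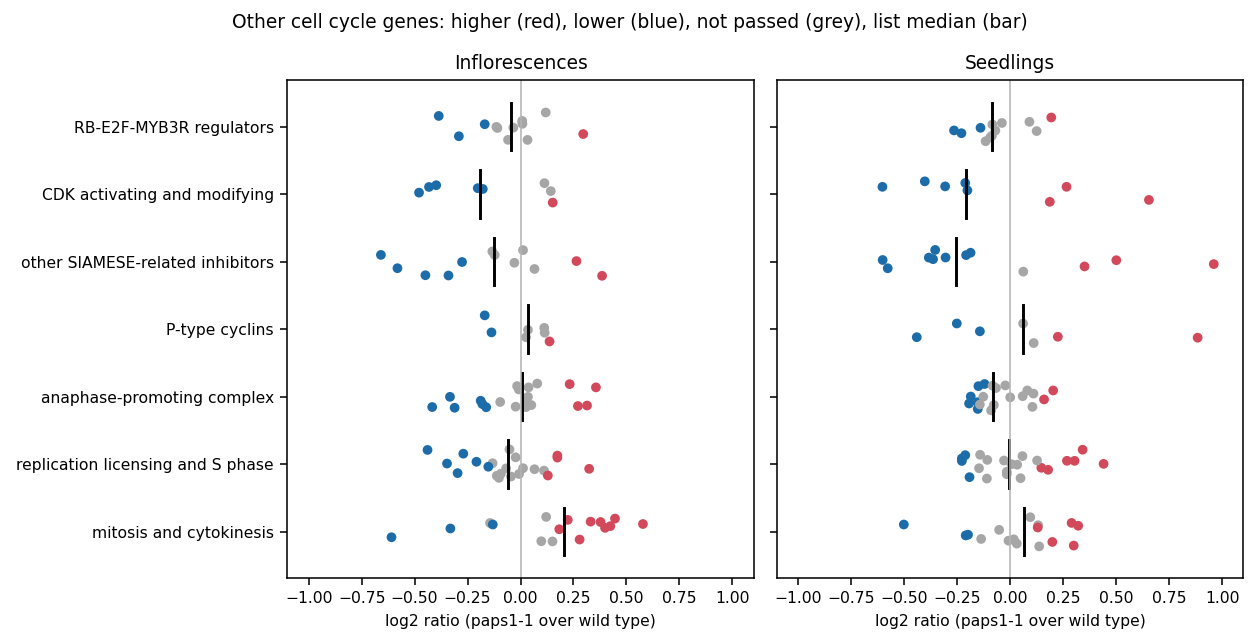
Log2 ratio of paps1-1 over wild type for each tested gene of 7 further cell cycle lists (rows) in inflorescences (left) and seedlings (right), with red for genes that rose, blue for genes that fell, grey for the rest and a bar at the list's median. The list of mitosis and cytokinesis has its median at 0.20 in inflorescences and 0.06 in seedlings, and the rightmost seedling point of the SIM-related list is SMR5 at 0.96.

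In wild type the set was mostly stronger in inflorescences. The signal of the wild-type channel was compared between tissues, and 83.5% of all loci passed, 45.5% higher and 38.1% lower in inflorescences. Of the 42 genes 33 were higher in inflorescences and 3 lower, which is 85.7%, and the median log2 ratio of tissues was 0.42 beside 0.07 over all loci. Slide and tissue cannot be told apart in this comparison either. The 7 floral genes were higher in inflorescences by a median of 6.60 and 8 of 11 root markers were lower, which matches the tissue labels.

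KRP2 had the highest tissue ratio of the set, at 1.31 ± 0.05 (adjusted p = 7.8e-10), and the meiotic A1 cyclin TAM and the mitotic kinase AT1G76540 followed at 0.95 ± 0.08 and 0.92 ± 0.04, without a difference between these 2 beyond their errors. KRP7 (0.90 ± 0.05), the D1 cyclin AT1G70210 (0.84 ± 0.05), the B1 cyclin AT5G06150 (0.75 ± 0.05) and KRP3 (0.73 ± 0.05) came next. The genes with less signal in inflorescences were the sucrose-responsive D2 cyclin AT2G22490, at −1.03 ± 0.06, KRP1 at −0.82 ± 0.08, and SMR1 at −0.20 ± 0.05. SIM and KRP6, the genes with the largest genotype ratios in inflorescences, were both higher in inflorescences, by 0.45 ± 0.06 and 0.62 ± 0.05. KRP4 was so by 0.44 ± 0.06. AT3G11520 of the B1 family, which rose in the mutant in both tissues, was at −0.09 ± 0.05 and did not pass except with all channels quantile-normalized (−0.11). Neither did its relative AT1G34460 (−0.04 ± 0.06, though −0.29 and past the threshold with processed signals), the B2 gene AT2G17620 (0.03 ± 0.06), AT1G47210 of the A3 family, AT5G10440 of the D4 type or AT4G03270 of the D6 type. Without inflorescence replicate 1 the last of these passed, at −0.14.

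**Figure D5:**
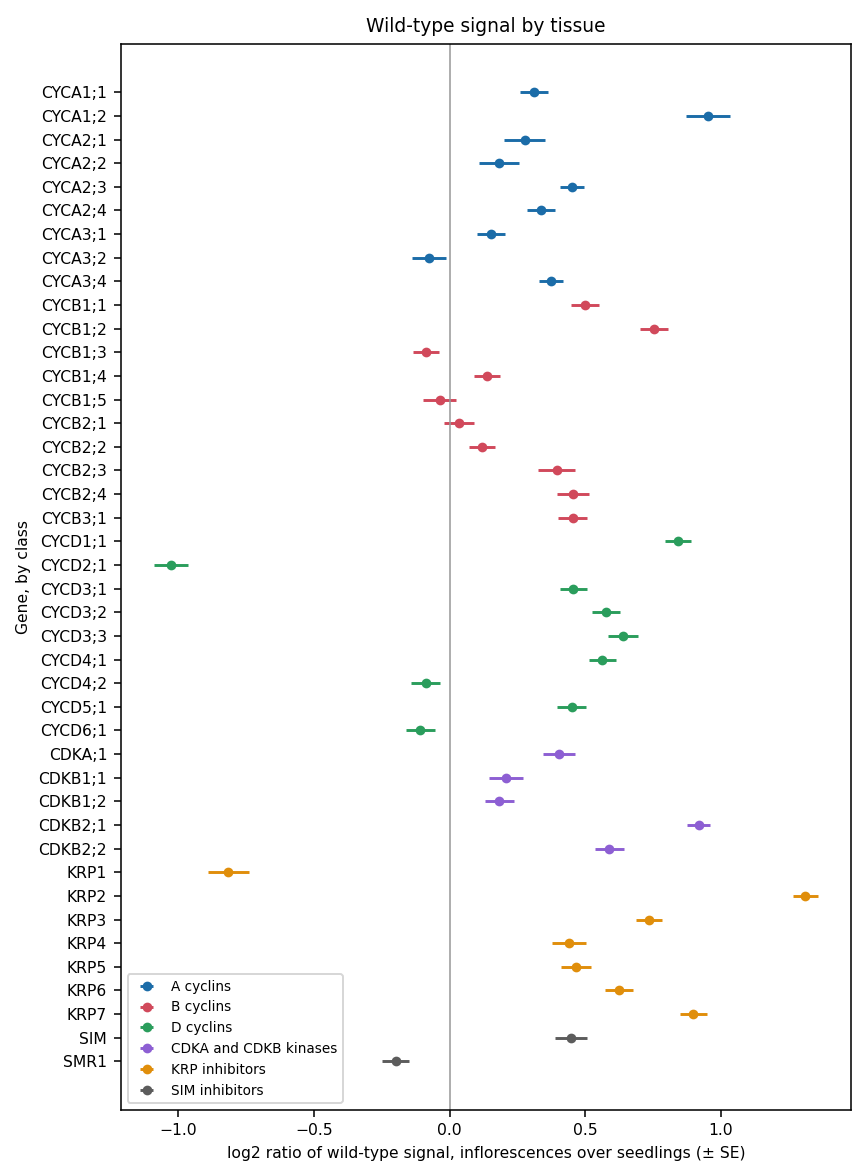
Log2 ratio of wild-type signal in inflorescences over seedlings for the 42 tested genes, coloured by class, with bars for 1 SE on each side. Points right of 0 are higher in inflorescences, led by KRP2 at 1.31, and the D2 cyclin and KRP1 lie farthest to the left, at −1.03 and −0.82.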

How the data were processed

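Each array compared mutant and wild-type RNA in 2 colours. Feature Extraction 10.7.3.1 wrote the scanner tables. Per the file headers, these give for both colours a median intensity per spot and for the background around it, unnormalized, and a processed intensity corrected by the software. The log10 ratio deposited in them is the software's, red over green of the processed values, and recomputing it gave the same numbers. The authors deposited a table of log2 ratios already turned to mutant over wild type. Across probes, this table correlated with the red to green ratio at 0.802 to 0.906 with the mutant in Cy5 and −0.908 to −0.889 with it in Cy3, and its column medians were −0.02 to 0.018. The submitters' processing notes name limma. Not given in the sources used here are the normalization of that table, the labelling chemistry and the gene models.

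Median intensities were corrected with normexp (offset 50) and normalized by loess within arrays in limma 3.58.1 (R 4.3.3, data.table at version 1.17.8, and Python 3.11.15 with pandas 2.3.3 and matplotlib 3.10.9 for summaries and plots). Loess sets the typical ratio of an array to 0. A probe was kept if well above background on all 4 arrays of a genotype in 1 tissue with a measurement on 6 or more of the arrays. Each locus was represented by its brightest such probe. A fit over 8 arrays had 1 coefficient per tissue and a dye term, with 5 residual degrees of freedom and 4.86 added by empirical Bayes moderation. Wild-type channels were scaled between arrays by the Aquantile method and fitted the same way. The fit was tested on simulated data. The red signal was 2.66 to 5.02 times background and the green 3.35 to 5.51 times, as medians per array. Spots well above background made up 57.3% to 64.2%, and none was saturated. Precision is limited by the number of arrays.

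Alternatives were another normexp offset, the software's log ratio, median centring, looser and stricter filters, the mean over probes, no dye term, the deposited log2 table, a replicate block, leaving out each array and, added after the data were seen, a test against a 1.2-fold change. Replicate numbers are shared by the tissues, but no label says that they pair samples. The 44 loci, the lists and the naming rule were chosen with earlier results of these data known. By that rule every tested gene of the set is given, values on each array are given for up to 4 called genes per class and tissue with the largest ratios, and up to 3 genes per list, direction and tissue are named. Symbols of other genes came from the RefSeq table of assembly TAIR10.1, which held 25449 of the 25665 loci. The 11242 probes without a locus, positions and sequences were not used here.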

Additional observations from a re-analysis of the deposited data

Results flagged for a closer look

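On 4 occasions 1 array of a tissue lay far from the other 3, by a rule that chance meets in about 1 of 20 groups of this size. With 42 genes in each of 2 tissues, chance alone gives about as many. CYCB2;4 was at −0.29 on inflorescence replicate 2, with the others from −0.22 to −0.21. CDKB2;2 was at 0.22 on seedling replicate 1, with the others from −0.04 to −0.02. KRP4 was at 0.11 on inflorescence replicate 1, with the others from −0.02 to 0. KRP5 was at −0.06 on seedling replicate 3, with the others from −0.22 to −0.20.

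For 9 genes the genotype effect differed between tissues by the limma test of seedlings minus inflorescences. The log2 difference was −0.59 for KRP4, −0.44 for CYCD6;1, −0.39 for CYCB1;2, −0.39 for CYCD2;1, −0.29 for CYCB1;5, −0.28 for CYCB2;2, −0.24 for CYCD3;1, −0.19 for CYCD4;2 and 0.26 for CYCD5;1. All but the last were lower in seedlings, and 32.2% of all loci passed this test.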

How the results depend on the processing

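No direction among the 42 genes was reversed for a called value under any alternative run. Of the called genes, 15 of 27 in inflorescences (7 higher, 8 lower), 18 of 26 in seedlings (5 higher, 13 lower), 3 of 9 in the difference of tissues and 32 of 36 in the wild-type tissue comparison passed under every other setting in which they were tested, the test against a 1.2-fold change aside. A stricter filter left out CYCB1;5 and CDKB1;2. With median centring the difference of tissues passed for 2939 loci in place of 6908 and for 5 of the 42 genes in place of 9, and among all called loci 39.0% were higher in inflorescences and 32.4% in seedlings, in place of 48.7% and 49.4%. Among the 42 genes the share of higher calls went from 51.9% to 33.3% in inflorescences and from 26.9% to 17.2% in seedlings. Against a 1.2-fold change, chosen after seeing the data, 2974 loci passed in inflorescences, 3846 in seedlings and 1603 in the difference, with 5, 9 and 1 of the 42 genes. Leaving out 1 array at a time gave 21 to 29 of the 42 genes in inflorescences, 19 to 25 in seedlings, 6 to 12 in the difference and 33 to 35 in the wild-type comparison, and 9291 to 12638, 10331 to 12388 and 4930 to 7803 loci in the first 3. The further lists were followed in the main setting alone.

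With the replicate number as a block the counts were 27, 25 and 8 genes, 35 in wild type, and 11056, 11951 and 6150 loci. The block ended the calls of CYCB1;1 in seedlings, CYCD4;2 in the difference and CYCB2;2 in the wild-type comparison. Same-numbered arrays share the dye orientation, and their deviations from the tissue mean correlated at 0.12 to 0.321, but within a dye orientation at −0.003 and 0.034. Each of the last 2 values rests on 1 difference of arrays per tissue, so they cannot decide whether the samples were paired.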
